A study of Mus musculus with 40 samples.

Results

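The midbrain of mice that had received MPTP followed by SUEHP was compared with the midbrain of control mice by RNA sequencing. The libraries were chosen by their labels alone, which gave 4 MPTP-SU and 4 Con midbrain libraries, 8 of the 40 samples of the series. All animals were C57BL/6N male mice of 8 weeks. Con mice were given saline in place of MPTP and saline at the acupoint GB34. MPTP-SU mice were given MPTP at 20 mg/kg by 4 intraperitoneal injections set 2 h apart, and from 1 week later they were injected with SUEHP at GB34, 4 times in all. MPTP-SU and Con therefore differed by both the toxin and the injected extract, and this contrast by itself cannot tell them apart. For that reason the 4 libraries of MPTP-Veh, mice given MPTP and then saline at GB34, are set beside the results as values. All 5 midbrain groups of 4 libraries entered the statistical fit, which estimates the spread between replicates. The remaining groups were mice given MPTP and SUEHP, with an intraperitoneal antagonist before each SUEHP injection. It was SR141716A, which blocks CB1, or T0070907, which blocks PPARγ. The labels do not say whether the replicates of a group were separate animals or pools, so p-values measure the spread between these libraries.

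MPTP is converted in the brain to a toxic cation that the dopamine transporter carries into dopaminergic neurons, where it inhibits complex I of the respiratory chain. In mice it is used to model the loss of nigrostriatal neurons in Parkinson's disease. Pharmacopuncture is the injection of a herbal extract at an acupuncture point, GB34 lies on the lateral side of the leg, and SUEHP is a preparation of this kind that includes deer antler extract. The midbrain holds the dopaminergic neurons of the substantia nigra and ventral tegmental area, and it borders the thalamus, the hypothalamus, the hippocampus, the overlying cortex and the meninges.

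Total estimated counts ran from 15020767 to 16295834 in Con and from 14747935 to 16639823 in MPTP-SU. The first principal component of the 8 libraries, which held 34.6% of the variance, set all Con libraries (-34.1 to -19.6) apart from all MPTP-SU libraries (20.5 to 39.0). Mitochondrially encoded transcripts made up 15.0% to 16.9% of the counts in Con and 9.92% to 15.1% in MPTP-SU. One library outside the comparison, MPTP-Veh replicate 4, stood apart with 1.35%. It entered the fit through the estimate of the spread, the low-count filter and the scaling, and results are also given from a fit that leaves it out. Markers of the labelled tissue were present in every library. A list of 20 midbrain regional genes summed to 300 to 385 CPM (counts scaled by library size) in Con and to 275 to 375 CPM in MPTP-SU. Dopaminergic marker genes summed to 533 to 770 CPM in Con and 543 to 867 CPM in MPTP-SU.

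Of the 16629 genes tested, 127 were differentially expressed genes (DEGs), meaning an adjusted p below 0.05 in edgeR's quasi-likelihood test with Benjamini-Hochberg adjustment and a change of more than 1.5-fold. These were 0.764% of all genes. Lower expression in MPTP-SU was the more frequent direction, with 102 DEGs lower (0.613%) and 25 higher (0.150%). Median log2 fold changes were -0.95 among the lower DEGs and 1.20 among the higher ones, and the smallest adjusted p was 0.00388. All 25 higher and 100 of the 102 lower DEGs had groups that did not overlap, as did 8.73% of all genes tested in the higher and 10.9% in the lower direction (19.6% in either). Predicted gene models without an established name made up 12 of the 25 higher DEGs, 3 of the 102 lower DEGs and 12.4% of all genes tested. In bulk tissue, fewer cells of a type and less RNA per cell cannot be told apart.

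**Figure D1:**
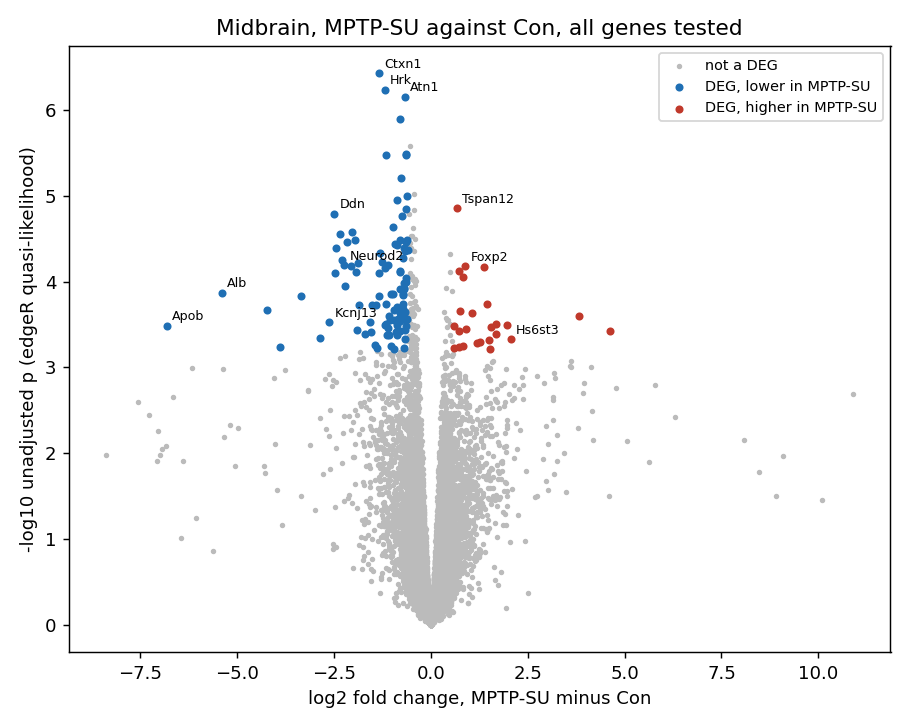
Each point is a gene tested in the midbrain, with its log2 fold change (MPTP-SU minus Con) on the horizontal axis and -log10 of the unadjusted edgeR p on the vertical axis. Blue points are the 102 DEGs lower in MPTP-SU and red points the 25 higher, and the points with the smallest p lie on the lower side, led by Ctxn1, Hrk and Atn1.

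The number of DEGs depended on which libraries entered the fit. Fitting only the 8 libraries compared gave 712 DEGs (290 higher, 1.83%, and 422 lower, 2.66%), of which 125 were among the 127, and the common dispersion, a measure of the spread between replicates, was 0.0200 in place of 0.0512. Dropping MPTP-Veh replicate 4 alone from the fit gave 786 DEGs (299 higher, 1.78%, and 487 lower, 2.89%), which held all 127. Leaving out 1 of the compared libraries lowered the count to 85, 11, 89 and 45 for Con replicates 1 to 4 and to 32, 12, 32 and 14 for MPTP-SU replicates 1 to 4. Of the 47 DEGs named here, 8 were called under every alternative run (Ctxn1, Hrk, Atn1, Syt5, Atpif1, ND6, Srsf4 and Celf5), and 39 lost the call when some library was left out. All 47 were called with only the 8 libraries and without MPTP-Veh replicate 4.

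**Figure D2:**
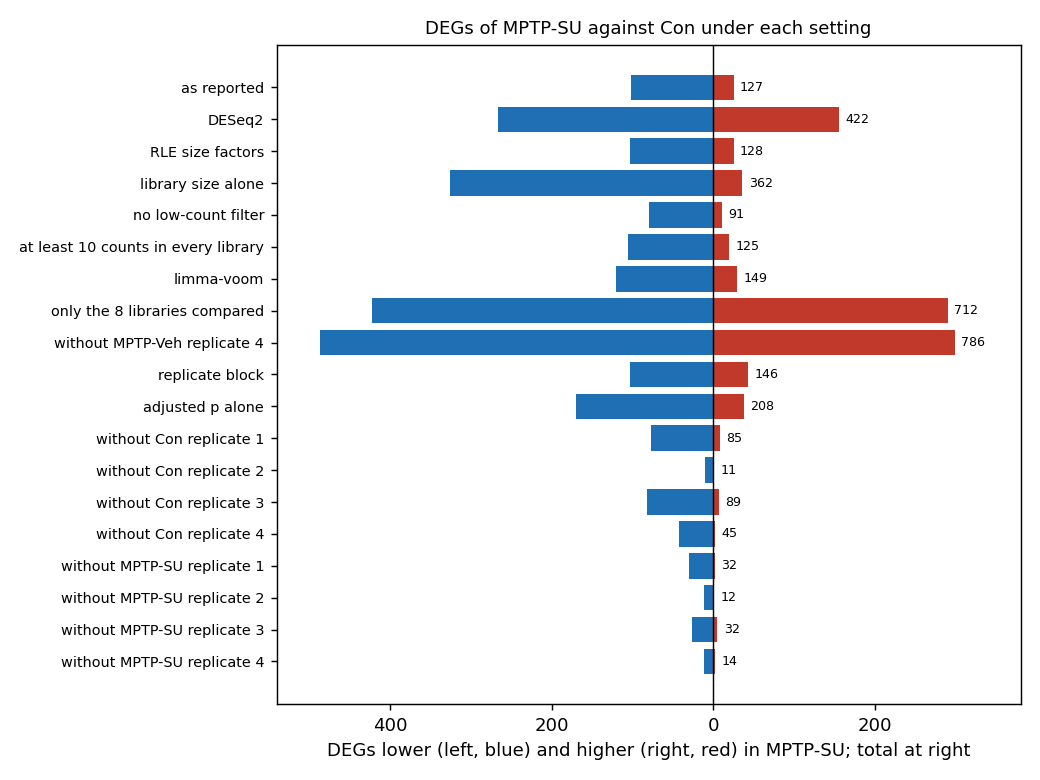
Bars give the number of DEGs lower (left, blue) and higher (right, red) in MPTP-SU than in Con under each setting, with the total printed at the right. The count runs from 11 without Con replicate 2 to 786 without MPTP-Veh replicate 4, and the lower DEGs outnumber the higher ones in every bar.

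Ctxn1, Hrk, Syt5 and Celf5, all expressed in neurons, were lower and were called under every alternative run. Ctxn1, which encodes the small neuronal membrane protein cortexin 1, stood at 81.3, 116, 71.3 and 81.8 CPM in Con replicates 1 to 4 and at 35.0, 26.8, 40.5 and 36.6 CPM in MPTP-SU. The groups did not overlap, and the gene fell by 1.33 ± 0.18 (SE) on the log2 scale, or 2.52-fold (adjusted p = 0.00388). Hrk, a BH3-only promoter of neuronal apoptosis, was at 13.4, 15.2, 12.3 and 14.1 CPM in Con and at 6.77, 5.94, 6.45 and 4.99 CPM in MPTP-SU, every one below the lowest Con library. It fell 2.27-fold (log2 change -1.18 ± 0.16, adjusted p = 0.00388). Syt5, a synaptotagmin of secretory vesicles, read 58.7, 55.3, 56.1 and 49.1 CPM in Con and 35.3, 28.2, 29.2 and 33.2 CPM in MPTP-SU, again with no overlap (log2 change -0.80 ± 0.11, adjusted p = 0.00528). Celf5, a neuronal RNA-binding protein, fell from 135 ± 21.1 to 80.1 ± 6.91 CPM (mean ± SD, n = 4 each, adjusted p = 0.0114). All had intermediate means in MPTP-Veh, with 52.2 CPM for Ctxn1, 9.90 for Hrk, 40.9 for Syt5 and 91.2 for Celf5. On the log2 scale MPTP-Veh minus Con was -0.75, -0.48, -0.42 and -0.57 for these genes in that order, and MPTP-SU minus MPTP-Veh was -0.59, -0.71, -0.38 and -0.19. Con replicate 2, which had the highest summed level of cortex and hippocampus markers (2636 CPM), was also highest for Ctxn1, Hrk and Celf5 (166 CPM). Syt5 was highest in Con replicate 1. The part of neighbouring tissue in these changes was not tested.

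Other lower DEGs stood in MPTP-Veh near or above the Con level. Atn1, which encodes the transcriptional corepressor atrophin-1, was at 309, 295, 315 and 294 CPM in Con and at 212, 175, 194 and 179 CPM in MPTP-SU, with no overlap (log2 change -0.67 ± 0.09, adjusted p = 0.00388). Its difference was -0.08 on the log2 scale for MPTP-Veh minus Con and -0.59 for MPTP-SU minus MPTP-Veh. Atpif1, the inhibitor of the mitochondrial ATP synthase, varied little within a group, at 201, 182, 183 and 179 CPM in Con and 121, 119.9, 119 and 119 CPM in MPTP-SU. It fell 1.56-fold (log2 change -0.64 ± 0.10, adjusted p = 0.00684), while its MPTP-Veh mean was 202 CPM. ND6, the complex I subunit that is encoded on the light strand of mitochondrial DNA, was at 62.5, 86.3, 79.9 and 86.3 CPM in Con and at 37.2, 31.8, 32.2 and 40.4 CPM in MPTP-SU. It fell 2.22-fold (log2 change -1.15 ± 0.18, adjusted p = 0.00684), and the MPTP-Veh libraries ran from 78.1 to 149 CPM. With SUEHP and SR141716A or T0070907 the means were 203 and 211 CPM for Atn1, 138 and 139 for Atpif1, and 36.2 and 38.3 for ND6. The liver transcripts described below were likewise lower in every midbrain group given SUEHP. The part of tissue handling in these changes was not tested.

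RNA processing and transcription were represented among the same DEGs. Srsf4, a serine- and arginine-rich splicing factor, was at 88.1, 82.0, 81.1 and 76.7 CPM in Con and at 53.0, 54.6, 52.6 and 51.6 CPM in MPTP-SU, without overlap (log2 change -0.63 ± 0.10, adjusted p = 0.00684). Its MPTP-Veh mean, 83.2 CPM, was close to the Con mean of 81.9 CPM. Pnn, the splicing-associated protein pinin, fell from 146 ± 9.89 to 94.9 ± 7.68 CPM (adjusted p = 0.0150), with 157 CPM in MPTP-Veh. Polr2a, the largest subunit of RNA polymerase II, fell from 120.3 ± 5.85 to 78.0 ± 5.76 CPM (adjusted p = 0.0158), with 111 CPM in MPTP-Veh. Pnn lost the call without Con replicate 1 or MPTP-SU replicate 3, where its change dropped under 1.5-fold. Polr2a lost it without Con replicate 2, MPTP-SU replicate 2 or MPTP-SU replicate 4, with adjusted p up to 0.0743.

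**Figure D3:**
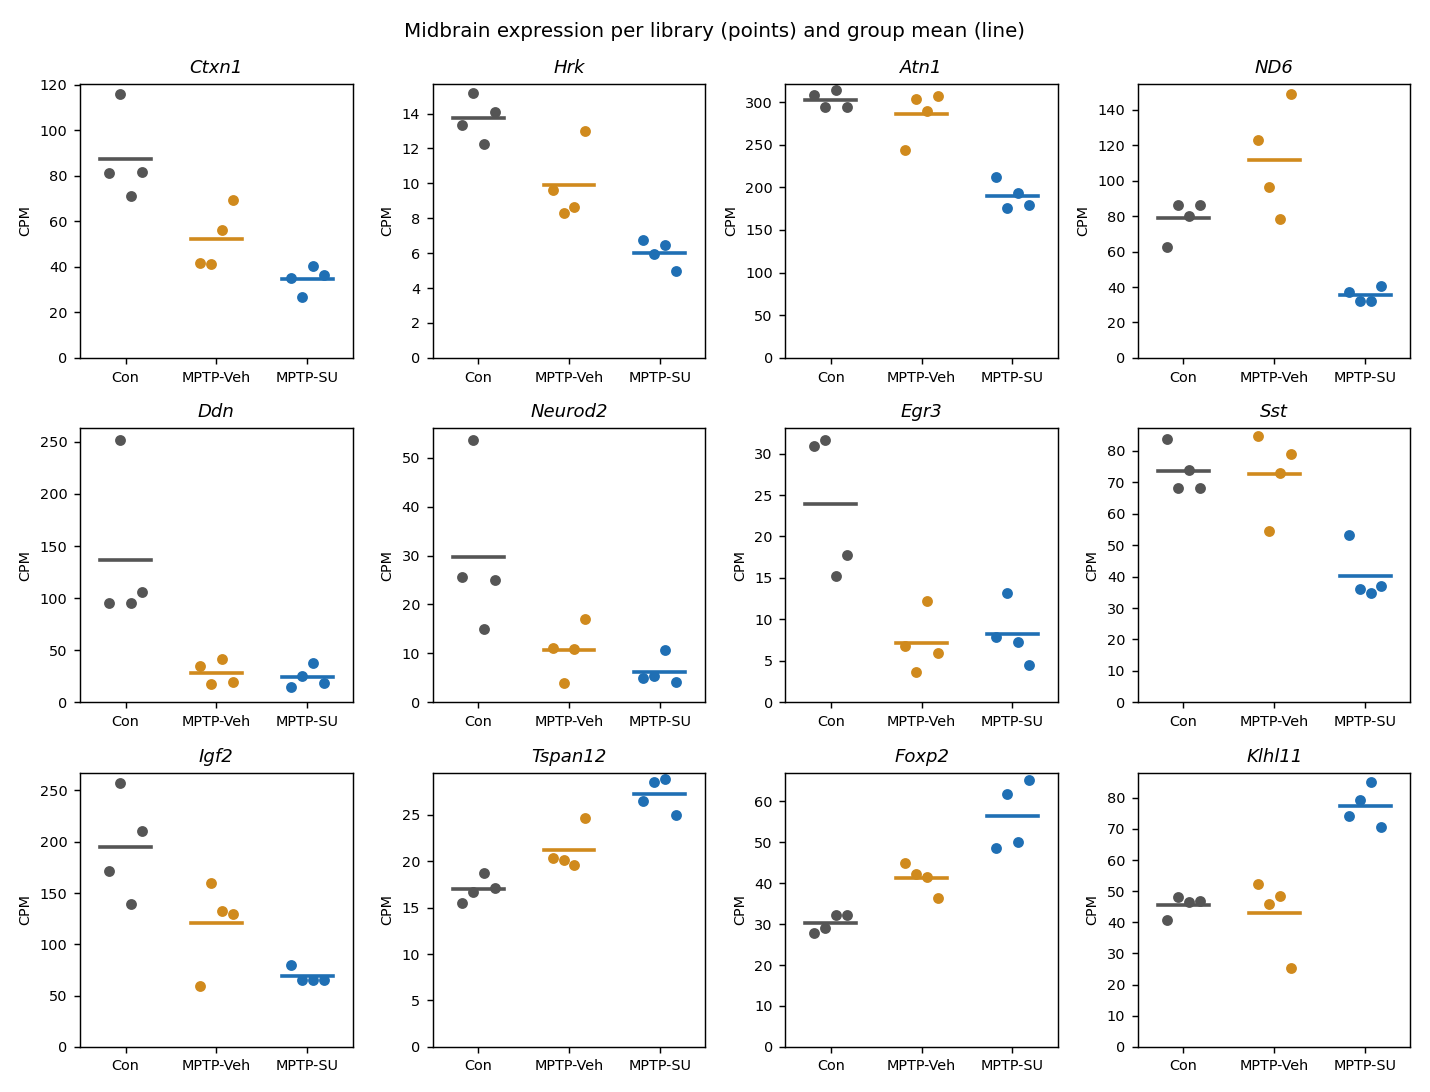
CPM of 12 named genes in each midbrain library of Con, MPTP-Veh and MPTP-SU, with points for libraries and lines for group means. Con and MPTP-SU do not overlap in any of the 12 panels, and MPTP-Veh lies near Con for Atn1 and Klhl11, near MPTP-SU for Ddn and Egr3, and between them for Tspan12 and Foxp2.

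Several postsynaptic and forebrain genes fell by larger amounts. Ddn, which encodes the postsynaptic protein dendrin, was at 95.4, 251, 95.2 and 106 CPM in Con and at 15.0, 25.5, 38.2 and 18.3 CPM in MPTP-SU. It fell 5.64-fold (log2 change -2.49 ± 0.43, adjusted p = 0.0158), with Con replicate 2 far above the other Con libraries and no overlap of the groups. Neurod2, a transcription factor of cortical and hippocampal excitatory neurons, was at 25.7, 53.6, 14.9 and 25.02 CPM in Con and at 5.03, 5.40, 10.6 and 4.11 CPM in MPTP-SU (log2 change -2.23 ± 0.44, adjusted p = 0.0210). Here too Con replicate 2 was the highest library, and all MPTP-SU libraries were lower than every Con library. Camk2a, the alpha subunit of the calcium- and calmodulin-dependent kinase of excitatory synapses, fell from 764 ± 299 to 363 ± 92.8 CPM (2.10-fold, adjusted p = 0.0412). Itpka, an inositol trisphosphate kinase of dendritic spines, fell from 15.4 ± 7.39 to 3.69 ± 0.901 CPM (4.17-fold, adjusted p = 0.0210).

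Further genes of this kind, named after their values were seen, changed in the same direction. Rin1, a regulator of Ras signalling in forebrain neurons, fell 5.39-fold, Icam5, an adhesion molecule of telencephalic dendrites, fell 4.65-fold, and Chrm1, the M1 muscarinic receptor, fell 3.84-fold. Synpo, the spine apparatus protein synaptopodin, fell 2.46-fold and Hpca, the calcium sensor hippocalcin, fell 2.22-fold. Their adjusted p ran from 0.0178 for Rin1 and Chrm1 to 0.0321 for Hpca. All 9 genes of this and the preceding paragraph lost the call when Con replicate 2 was left out, and likewise for MPTP-SU replicates 2 and 4. For Ddn the adjusted p was then 0.0534 to 0.0743, and for Camk2a, which also lost the call without Con replicates 1 and 4 and MPTP-SU replicates 1 and 3, it was 0.0657 to 0.172.

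Neurod2, Itpka and Camk2a are members of a marker list of cortex and hippocampus, regions that lie above the midbrain. The change of this list is therefore not independent of these genes. Of the 19 tested members of this marker list, those 3 were lower DEGs (0.613% of all genes) and none was a higher DEG. In all, 11 were lower at an unadjusted p below 0.05, a level that 8.79% of all genes reached. The median log2 fold change was -1.07, against 0.0075 over all genes. Summed over the list, the level was 1919, 2636, 1213 and 1511 CPM in Con and 761, 1122, 1156 and 875 CPM in MPTP-SU, with the highest value in Con replicate 2 and no overlap. In MPTP-Veh it was 808 to 1193 CPM, within the range of MPTP-SU apart from 1 library. Camk2a alone averaged 764 CPM of a summed mean of 1820 CPM in Con, and 363 of 979 CPM in MPTP-SU. With only the 8 libraries, 8 of the 19 were lower DEGs, where 2.66% of all genes were. DESeq2 called 7 of them lower (1.60% of all genes) and limma-voom 5 (0.722%). How much of these differences came from the amount of neighbouring tissue in each sample was not tested.

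Immediate early genes are transcribed by neurons within minutes of strong activity. Of 21 tested, 3 were lower DEGs (Egr4, Fosl2 and Egr3; 0.613% of all genes were), none was a higher DEG, 11 were lower (8.79% of all genes) and none higher at an unadjusted p below 0.05, and the median log2 fold change was -0.45. Egr3, a zinc finger factor induced by activity, was at 30.9, 31.7, 15.2 and 17.7 CPM in Con and at 7.92, 13.2, 7.26 and 4.48 CPM in MPTP-SU, without overlap (log2 change -1.54 ± 0.36, adjusted p = 0.0395). Its MPTP-Veh libraries, with a mean of 7.17 CPM, were as low as those of MPTP-SU. Fosl2, the Fos-related partner of Jun proteins, was at 11.3, 15.8, 10.3 and 10.2 CPM in Con and at 5.23, 7.10, 6.10 and 2.57 CPM in MPTP-SU (log2 change -1.18 ± 0.27, adjusted p = 0.0369). Egr4, a low-expressed member of the Egr family, fell from 2.16 ± 0.390 to 0.558 ± 0.308 CPM (3.82-fold, adjusted p = 0.0215).

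Other members of the list did not pass the test, and 10 of the 21 did not reach an unadjusted p below 0.05. Egr1 stood at 95.3, 59.9, 87.5 and 58.8 CPM in Con and at 32.0, 49.4, 36.4 and 44.5 CPM in MPTP-SU, which did not overlap (adjusted p = 0.0694). Fos itself was at 17.3, 10.6, 19.7 and 16.6 CPM in Con and at 7.31, 11.5, 12.7 and 15.9 CPM in MPTP-SU, with overlapping groups (adjusted p = 0.413). Nr4a3 had a log2 fold change of -1.58 ± 0.47 (adjusted p = 0.0951), and Junb one of -0.83 ± 0.28 (adjusted p = 0.145). Dusp6 and Dusp1, phosphatases of MAP kinases, had log2 fold changes of 0.42 and 0.26 (adjusted p = 0.396 and 0.671). Fosl2 lost its call when any of the 8 libraries was left out, Egr3 when any but Con replicate 3 was, and Egr4 without Con replicate 2 or MPTP-SU replicates 1, 3 or 4, at adjusted p of up to 0.145. With only the 8 libraries 6 members were lower DEGs (2.66% of all genes), and 7 when MPTP-Veh replicate 4 was dropped (2.89%), Egr1 and Nr4a3 among them in both fits. DESeq2 called 5 (1.60%) and limma-voom 3 (0.722%). The summed level of the cortex and hippocampus markers moved with that of these genes, and its part in their change was not tested.

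For the DEGs among these genes, the 250 bases before the transcription start were examined in the RefSeq promoter sequences of build GRCm38.p6, an earlier build than the GRCm39 of the count files. Egr4 and Fosl2 had an entry, and Egr3 was not used here. The Egr4 sequence lies at chr6:85513590-85513839 on the minus strand and the Fosl2 sequence at chr5:32136222-32136471 on the plus strand, each printed 5′ to 3′ in the direction of transcription. Capitals mark the matches to the motifs searched.
Egr4: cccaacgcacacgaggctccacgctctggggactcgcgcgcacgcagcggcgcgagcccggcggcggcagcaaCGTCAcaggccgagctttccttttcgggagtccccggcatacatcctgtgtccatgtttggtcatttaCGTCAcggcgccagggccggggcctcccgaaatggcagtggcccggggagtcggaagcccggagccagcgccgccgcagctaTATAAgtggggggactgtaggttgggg
Fosl2: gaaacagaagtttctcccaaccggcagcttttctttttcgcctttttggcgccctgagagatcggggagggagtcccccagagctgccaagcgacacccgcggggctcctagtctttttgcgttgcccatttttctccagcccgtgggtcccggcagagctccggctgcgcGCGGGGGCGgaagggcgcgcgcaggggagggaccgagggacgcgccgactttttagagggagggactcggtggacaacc

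The motifs were the cAMP response element (CRE, TGACGTCA), its shorter form (TGACG, counted also inside the full element), the Egr binding site (GCGGGGGCG), the CArG box of serum response factor and the TATA motif (TATAA), each searched on both strands. Egr4 held the shorter CRE on the opposite strand, read there as CGTCA, at 177 to 173 and at 109 to 105 bases before the start, and a TATA motif at 27 to 23 bases. Fosl2 held 1 Egr site at 79 to 71 bases. Of the 32851 promoter sequences of that length, 17.8% held the shorter CRE, 22.8% the TATA motif and 2.57% the Egr site. The full CRE, present in 1.55%, and the CArG box, in 1.47%, were found in neither sequence.

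Single markers of the brain's coverings and of the choroid plexus were lower DEGs. Igf2, the growth factor that leptomeningeal and choroid plexus cells secrete, was at 171, 258, 139.7 and 211 CPM in Con and at 79.9, 65.1, 64.9 and 65.2 CPM in MPTP-SU. The groups were well separated and the gene fell 2.83-fold (log2 change -1.50 ± 0.32, adjusted p = 0.0321), with a mean of 120.3 CPM in MPTP-Veh. It was the DEG among 15 tested markers of leptomeningeal fibroblasts (0.613% of all genes were lower DEGs), and the list's median log2 fold change was -0.97. Of these markers, 8 were lower (8.79% of all genes) and none higher at an unadjusted p below 0.05. Fmod, the collagen-binding fibromodulin, fell short of the test at 54.9 ± 10.99 in Con and 17.3 ± 4.79 CPM in MPTP-SU (adjusted p = 0.0778). Aldh1a2, the meningeal enzyme of retinoic acid synthesis, did too, with 25.6 ± 5.35 and 10.98 ± 1.73 CPM (adjusted p = 0.0805). Col6a1, a collagen VI chain chosen after its values were seen, fell 3.59-fold (adjusted p = 0.0321). The summed list level was 380 to 671 CPM in Con and 217 to 285 CPM in MPTP-SU, and with only the 8 libraries 10 of the 15 members were lower DEGs (2.66% of all genes), Fmod and Aldh1a2 among them. Dropping MPTP-Veh replicate 4 gave 7 (2.89%), DESeq2 4 (1.60%) and limma-voom 1 (0.722%). Igf2 and Col6a1 lost the call without Con replicates 2 or 4 or any MPTP-SU library, with adjusted p up to 0.118.

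In the choroid plexus list, Kcnj13, an inward rectifier potassium channel of that epithelium, was at 6.68, 17.7, 4.23 and 10.95 CPM in Con and at 1.61, 1.64, 1.10 and 2.13 CPM in MPTP-SU. It fell 6.12-fold (adjusted p = 0.0360) and was the DEG among 11 tested members (0.613% of all genes were lower DEGs), of which 8 were lower (8.79% of all genes) and none higher at an unadjusted p below 0.05. The list's median log2 fold change was -1.60. Ttr, the thyroid hormone carrier that defines the epithelium, varied most within Con, at 3.25, 1170.5, 66.3 and 524 CPM, and was at 6.31, 5.94, 18.7 and 12.1 CPM in MPTP-SU. Con replicate 1 was thus below every MPTP-SU library, and the gene did not pass the test (adjusted p = 0.0616), but it was called with only the 8 libraries (adjusted p = 0.0205). The summed list level overlapped, with 390 to 1932 CPM in Con and 446 to 509 CPM in MPTP-SU. In this list 3 members were lower DEGs with only the 8 libraries (2.66% of all genes), 6 when MPTP-Veh replicate 4 was dropped (2.89%), 5 by DESeq2 (1.60%) and 1 by limma-voom (0.722%). Kcnj13 lost the call when any library but Con replicate 3 was left out, with adjusted p from 0.05004 to 0.145.

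The thalamus borders the midbrain in front. Of 12 thalamic markers tested, none was a higher DEG, 6 were higher at an unadjusted p below 0.05 (7.28% of all genes were), and the median log2 fold change was 0.69. Rora, a nuclear receptor of thalamic relay neurons, was at 103, 169, 138 and 111 CPM in Con and at 172, 408, 383 and 360.3 CPM in MPTP-SU, where replicate 1 was far below the other MPTP-SU libraries (log2 difference 1.34 ± 0.41, adjusted p = 0.107, and 0.0069 with only the 8 libraries). Prkcd, a protein kinase C of the same neurons, overlapped between groups at 21.8, 182, 109.9 and 48.7 CPM in Con and 58.6, 366, 538 and 412 CPM in MPTP-SU (adjusted p = 0.314). Summed over the list, the level was 579 to 945 CPM in Con and 797, 1707, 1871 and 1697 CPM in MPTP-SU replicates 1 to 4. The member called in the list was lower: Lhx2, a LIM homeobox factor also used in the cortex, fell from 21.9 ± 3.97 to 9.72 ± 2.54 CPM (2.25-fold, adjusted p = 0.0215). With only the 8 libraries 4 members were higher DEGs and 1 lower, where 1.83% and 2.66% of all genes were, and dropping MPTP-Veh replicate 4 gave 2 higher (1.78%) and 1 lower (2.89%). DESeq2 called 1 higher (0.938% of all genes) and 1 lower (1.60%), and limma-voom none higher (0.174%) and 1 lower (0.722%).

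**Figure D4:**
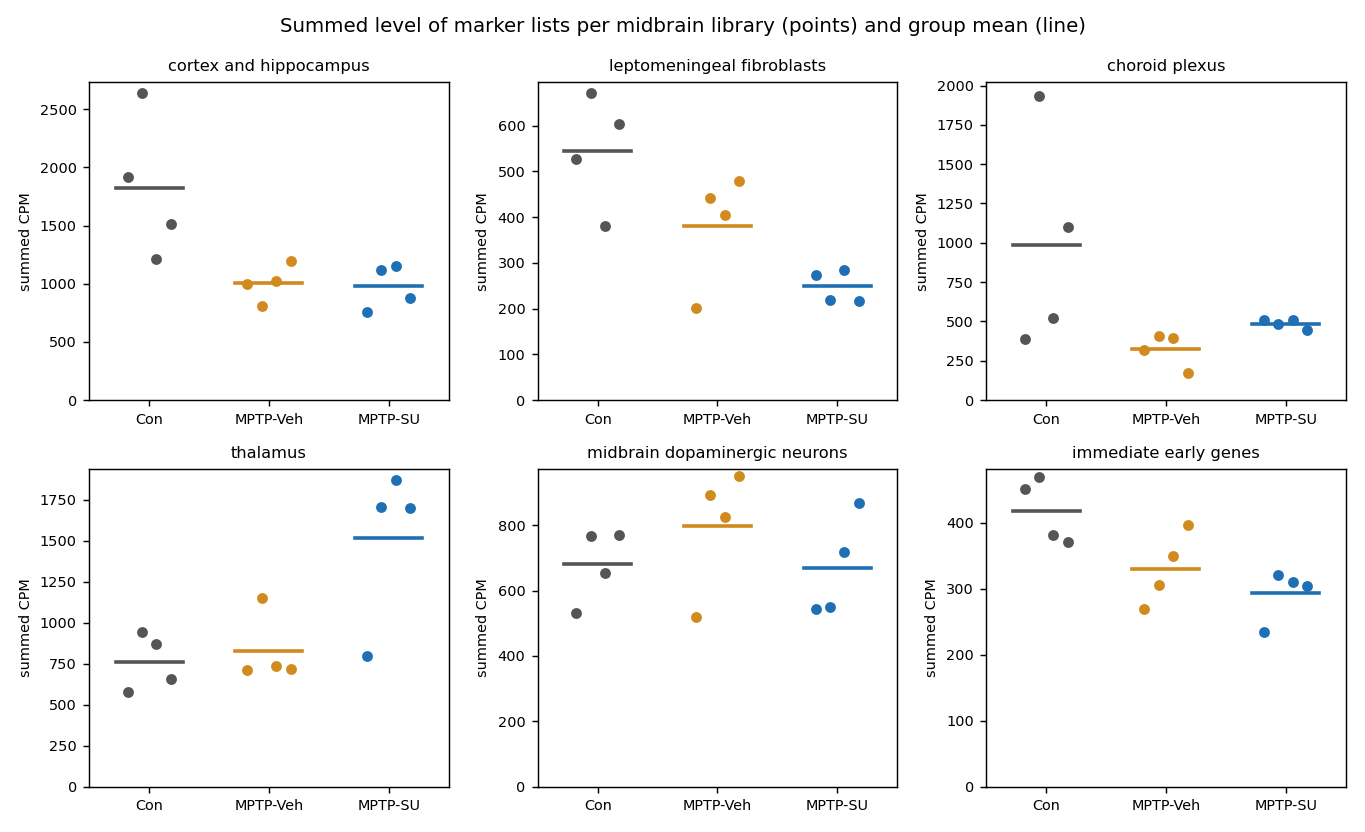
Summed CPM of 6 gene lists in each midbrain library of Con, MPTP-Veh and MPTP-SU, with points for libraries and lines for group means. Con and MPTP-SU do not overlap for the cortex and hippocampus, leptomeningeal and immediate early lists, and they overlap for the choroid plexus, thalamus and dopaminergic lists.

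Several transcripts that hepatocytes make in large amounts were present at low levels in Con and almost absent in MPTP-SU. Alb, serum albumin, was at 16.04, 6.74, 5.81 and 6.12 CPM in Con and at 0.537, 0.205, 0.0581 and 0 CPM in MPTP-SU. In counts this was 557 against 12, a ratio of 43.4 with an exact 95% interval of 24.6 to 84.4 that covers counting error only (adjusted p = 0.0278). Apob, the apolipoprotein of very low density lipoproteins, had 177 counts in Con and 1 in MPTP-SU, a ratio of 165 with an interval of 29.3 to 6568 (adjusted p = 0.0369). Both were chosen after their values were seen, and a list of 23 liver genes was then written. The list summed to 19.0 to 46.5 CPM in Con and 3.02 to 4.63 CPM in MPTP-SU, where 10 of the 23 genes were at 0 in all 4 libraries. It summed to 24.3 to 412 CPM in MPTP-Veh and to 2.90 to 4.39 CPM in the midbrains given SUEHP with an antagonist. In the spinal cord it lay between 22.2 and 60.6 CPM in every group, MPTP-SU included. The labels do not give the order of dissection, extraction or sequencing, so the part of the tissue handling in these differences was not tested. Neither Alb nor Apob was called by limma-voom (adjusted p = 0.143 and 0.0847). Alb lost the call without Con replicates 1 or 2 or any MPTP-SU library, and Apob when any library was left out.

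Tspan12 and Foxp2 had the smallest p-values among the higher DEGs. Tspan12, a tetraspanin that assists Norrin signalling through Frizzled receptors in vessels, was at 15.5, 16.7, 18.7 and 17.1 CPM in Con and at 26.5, 28.5, 28.9 and 24.9 CPM in MPTP-SU. It rose 1.60-fold (log2 change 0.68 ± 0.12, adjusted p = 0.0158). Foxp2, a forkhead transcription factor expressed in subsets of thalamic, striatal and midbrain neurons, was at 27.9, 29.0, 32.2 and 32.3 CPM in Con and at 48.6, 61.8, 50.1 and 65.2 CPM in MPTP-SU (1.86-fold, adjusted p = 0.0210). Neither gene overlapped between the groups, and both had MPTP-Veh means in between, at 21.2 and 41.3 CPM.

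A few of the higher DEGs have roles in cell adhesion or synapse organisation. Lower DEGs had such roles too, among them Icam5 above and the clustered protocadherin Pcdhgc5 (log2 change -1.09 ± 0.21, adjusted p = 0.0210). Cbln2, a secreted synaptic organiser of the cerebellin family, was at 34.2, 23.6, 34.1 and 28.8 CPM in Con and at 57.5, 53.3, 45.8 and 59.1 CPM in MPTP-SU (1.79-fold, adjusted p = 0.0229). Pcdhac1, a clustered protocadherin, rose from 2.00 ± 0.763 to 5.22 ± 0.611 CPM (2.60-fold, adjusted p = 0.0210), and Cdh6, a classical cadherin, rose from 23.1 ± 2.89 to 38.6 ± 7.66 CPM (1.67-fold, adjusted p = 0.0390). Hs6st3, a sulfotransferase of heparan sulfate, rose from 0.448 ± 0.0570 to 1.91 ± 0.321 CPM (4.19-fold, adjusted p = 0.0433). Samd5, a further higher DEG that is not placed in this group and was chosen after its values were seen, rose 2.87-fold (adjusted p = 0.0492).

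Other higher DEGs act in protein turnover, metabolism and the cytoskeleton. Klhl11, a substrate adaptor of a Cullin 3 ubiquitin ligase, was at 40.9, 48.2, 46.6 and 47.0 CPM in Con and at 74.1, 79.2, 85.1 and 70.7 CPM in MPTP-SU (1.69-fold, adjusted p = 0.0326). Its MPTP-Veh mean of 43.0 CPM was near that of Con. Gpcpd1, a phosphodiesterase of glycerophosphocholine, rose from 69.1 ± 4.73 to 105 ± 8.39 CPM (1.51-fold, adjusted p = 0.0485), with 63.3 CPM in MPTP-Veh. Fign, a microtubule-severing enzyme, rose from 18.1 ± 3.66 to 30.3 ± 3.31 CPM (adjusted p = 0.0485), and Vash2, a tubulin carboxypeptidase, from 7.20 ± 0.828 to 13.7 ± 3.31 CPM (adjusted p = 0.0385). Hint3, a nucleotide hydrolase, rose 1.51-fold and the noncoding transcript Gt(ROSA)26Sor 1.66-fold (adjusted p = 0.0369 and 0.0215). Klhl11, Vash2, Cdh6, Hs6st3, Fign, Gpcpd1 and Samd5 lost the call when any of the 8 libraries was left out, and the other higher genes named lost it at least without Con replicate 2 and without MPTP-SU replicate 2, with adjusted p up to 0.175 over all of them. Scaling by library size alone ended the calls of Tspan12, Klhl11, Hint3, Vash2, Cdh6, Fign and Gpcpd1, and testing without a low-count filter ended those of Klhl11, Hint3, Vash2, Cdh6, Hs6st3, Fign, Gpcpd1 and Samd5.

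Dopaminergic neurons are the cells that MPTP injures, and none of their markers was a DEG. Th, the rate-limiting enzyme of dopamine synthesis, was at 26.4, 58.8, 48.3 and 57.1 CPM in Con and at 20.4, 27.2, 54.6 and 72.6 CPM in MPTP-SU. The groups overlapped, with a log2 difference of -0.13 ± 0.44 (adjusted p = 0.927). Slc6a3, the dopamine transporter, was at 44.4, 105, 69.5 and 97.8 CPM in Con and at 24.8, 40.6, 86.3 and 128 CPM in MPTP-SU, with a log2 difference of -0.18 ± 0.49 (adjusted p = 0.906). The sign of both differences turned without MPTP-SU replicate 1 or 2. Of 21 tested markers, none was a DEG by edgeR, DESeq2 or limma-voom, and the median log2 fold change was -0.04. Among them 1 was lower (8.79% of all genes) and 1 higher (7.28%) at an unadjusted p below 0.05. Drd2, the dopamine autoreceptor of these neurons, was at 28.3 ± 2.65 in Con and 20.9 ± 1.95 CPM in MPTP-SU (adjusted p = 0.153), and Sox6, a factor of nigral neurons, at 13.6 ± 1.03 and 18.4 ± 0.816 CPM (adjusted p = 0.162). Neither of these overlapped between the groups, and both had an adjusted p below 0.05 with only the 8 libraries (0.0166 for Drd2 and 0.0128 for Sox6) and without MPTP-Veh replicate 4 (0.0413 and 0.0065), at changes of less than 1.5-fold. In those fits Th and Slc6a3 had adjusted p between 0.818 and 0.865.

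Among 18 tested genes whose variants cause inherited Parkinson's disease, the median log2 fold change was 0.07. In this list 2 were higher at an unadjusted p below 0.05 (7.28% of all genes). These were Vps13c, a lipid transfer protein, and Fbxo7, a ubiquitin ligase subunit. Vps13c was at 48.8 ± 2.65 in Con and 65.3 ± 3.36 CPM in MPTP-SU (adjusted p = 0.111), and Fbxo7 at 29.3 ± 1.58 and 35.9 ± 3.85 CPM (adjusted p = 0.181). Both had an adjusted p below 0.05 with only the 8 libraries (0.0060 for Vps13c and 0.0487 for Fbxo7), at changes under 1.5-fold.

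The lists of glial and inflammatory genes held no DEG by edgeR, DESeq2 or limma-voom. The edgeR fits of only the 8 libraries and without MPTP-Veh replicate 4 called none of their members either. Immune genes outside these lists were lower DEGs, such as the interleukin gene Il16 (5.91 CPM in Con and 1.15 CPM in MPTP-SU, adjusted p = 0.0178) and Ptpn6 (4.29 and 2.49 CPM, adjusted p = 0.0263). Of 16 microglial markers, 1 was lower and none higher at an unadjusted p below 0.05, where 8.79% and 7.28% of all genes were. Their median log2 fold change was -0.03. Itgam, the CD11b integrin of microglia, was at 12.8 ± 1.90 in Con and 12.7 ± 0.388 CPM in MPTP-SU (log2 difference -0.02 ± 0.18), and Cd68, a lysosomal protein of phagocytes, at 5.69 ± 0.782 and 3.75 ± 0.799 CPM (adjusted p = 0.153). Of 15 astrocyte markers, 2 were lower and 1 higher at that level, and Gfap, the intermediate filament that reactive astrocytes accumulate, was at 296, 348, 254 and 354 CPM in Con and at 163, 171, 317 and 208 CPM in MPTP-SU (adjusted p = 0.462). For Gfap the log2 difference was -0.54 also without MPTP-Veh replicate 4, where the adjusted p was 0.0425, and with only the 8 libraries, where it was 0.0807. Of 20 inflammatory signalling genes 1 was lower and 2 were higher, with a median of -0.13. Mapk14, the p38 kinase of inflammatory signalling, differed by -0.03 ± 0.18 on the log2 scale. Myelin genes of oligodendrocytes, with 2 of 19 higher and 1 lower, had a median of 0.17, and Aspa, the aspartoacylase of these cells, was at 31.9 ± 3.61 and 44.5 ± 2.35 CPM (adjusted p = 0.102, and 0.0083 with only the 8 libraries, a change under 1.5-fold).

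The endocannabinoid system and the PPAR nuclear receptors were examined because other groups of the series received antagonists of CB1 and PPARγ. Cnr1, the CB1 receptor, was at 62.1, 81.1, 56.9 and 62.3 CPM in Con and at 87.3, 74.0, 57.6 and 47.3 CPM in MPTP-SU, with a log2 difference of 0.02 ± 0.35. Pparg, at 1.31 ± 0.562 in Con and 1.33 ± 0.589 CPM in MPTP-SU, differed by 0.02 ± 0.41. Both pairs of groups overlapped, and the sign of both differences turned with library-size scaling. Of 12 endocannabinoid genes, 15 receptors and coregulators and 20 PPAR target genes, none was a DEG by edgeR over all 20 midbrain libraries or by limma-voom. In the PPAR target list DESeq2 called 1 gene lower (1.60% of all genes). The edgeR fits with only the 8 libraries (2.66%) and without MPTP-Veh replicate 4 (2.89%) each called 1 lower too. At an unadjusted p below 0.05 the counts lower and higher were 1 and 1, 1 and 1, and 3 and 0 (8.79% and 7.28% of all genes). Ppargc1a, the PPARγ coactivator of mitochondrial biogenesis, was at 50.5 ± 4.41 and 68.9 ± 7.82 CPM (adjusted p = 0.159, and 0.0154 with only the 8 libraries, at under 1.5-fold). Lpl, lipoprotein lipase and a PPAR target, was at 11.6 ± 7.48 and 4.46 ± 0.982 CPM (adjusted p = 0.0662), and was called in both of these edgeR fits (adjusted p = 0.0412 and 0.0154).

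Genes of mitochondria, ribosomes and splicing had small negative median differences. Of 36 nuclear-encoded complex I subunits none was a DEG by edgeR, DESeq2 or limma-voom, and the median log2 fold change was -0.13. Among them 8 were lower (8.79% of all genes) and none higher (7.28%) at an unadjusted p below 0.05. Ndufb3 fell from 38.6 ± 1.79 to 28.6 ± 2.23 CPM (adjusted p = 0.0235) and Ndufa12 from 129.6 ± 3.83 to 98.5 ± 5.54 CPM (adjusted p = 0.0385), both by less than 1.5-fold. For these subunits the MPTP-Veh means were 45.1 and 144 CPM, above Con. Of 77 cytosolic ribosomal proteins none was a DEG by edgeR, DESeq2 or limma-voom, and the median was -0.19. Here 19 were lower (8.79% of all genes) and none higher (7.28%) at an unadjusted p below 0.05. Rpl21 fell 1.41-fold (adjusted p = 0.0261) and Rps26 1.34-fold (adjusted p = 0.0328). The share of counts from mitochondrial genes, given above, overlapped between the groups and was lowest in MPTP-SU replicates 3 and 4 (12.8% and 9.92%). The part of this share in these differences was not tested.

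Among 30 hnRNP and SR splicing factors, 2 were lower DEGs (0.613% of all genes), and the median was -0.11. At an unadjusted p below 0.05, 11 were lower (8.79% of all genes) and none higher (7.28%). Besides Srsf4, Srsf9 fell from 18.8 ± 1.25 to 12.0 ± 1.94 CPM (1.57-fold, adjusted p = 0.0350), a call lost when any library was left out. Hnrnpul1 and Hnrnph3 fell 1.26-fold and 1.39-fold (adjusted p = 0.0326 and 0.0487). Of 16 host genes of small nucleolar RNAs none was a DEG by any of these tools, and 5 were lower and none higher at that level (8.79% and 7.28% of all genes). Nop56, a core protein of their particles, fell 1.36-fold (adjusted p = 0.0326). The medians of these lists are to be read against that of all genes, which depends on scaling. It was 0.0075 with the scaling used here, 0.0078 with RLE size factors and -0.11 with library size alone.

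Among peptides, Sst and Npy were lower DEGs. Sst, the neuropeptide somatostatin, was at 83.8, 68.2, 74.1 and 68.3 CPM in Con and at 53.1, 36.0, 34.9 and 37.1 CPM in MPTP-SU, without overlap (1.83-fold lower, adjusted p = 0.0326), and its MPTP-Veh mean was 72.7 CPM. Npy, neuropeptide Y, was at 12.5, 20.2, 13.1 and 11.4 CPM in Con and at 8.18, 7.38, 9.003 and 7.48 CPM in MPTP-SU (1.79-fold lower, adjusted p = 0.0350), and its MPTP-Veh mean was 7.95 CPM. So for Sst the level in MPTP-Veh was near Con, and for Npy it was near MPTP-SU. Both came from a list of 12 tested hypothalamic markers, of which 2 were lower DEGs (0.613% of all genes). At an unadjusted p below 0.05, 4 were lower (8.79% of all genes) and 1 higher (7.28%). This list had a median log2 fold change of -0.85. Its summed level was 120.4 to 606 CPM in Con and 78.4 to 210.1 CPM in MPTP-SU, which overlap, and its part in the change of Sst and Npy was not tested. Chgb, the secretory granule protein chromogranin B chosen after its values were seen, fell from 372 ± 61.1 to 192 ± 12.1 CPM (adjusted p = 0.0326). Sod3, the extracellular superoxide dismutase, was at 26.6, 27.8, 20.9 and 25.2 CPM in Con and at 17.4, 15.4, 14.3 and 14.4 CPM in MPTP-SU (1.63-fold lower, adjusted p = 0.0280).

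Sod3 was the DEG among 27 NRF2 and antioxidant genes (0.613% of all genes were lower DEGs), and the list's median was 0.05. In this list 4 were lower (8.79% of all genes) and 5 higher (7.28%) at an unadjusted p below 0.05. Gstm1, a glutathione transferase, was at 271 ± 11.1 in Con and 206 ± 14.0 CPM in MPTP-SU (adjusted p = 0.0696), and Prdx4, a peroxiredoxin of the endoplasmic reticulum, at 10.7 ± 0.769 and 14.4 ± 1.47 CPM (adjusted p = 0.146). Of 19 neurotrophic factors and receptors none was a DEG by edgeR over the 20 midbrain libraries, DESeq2 or limma-voom. Among them 3 were lower (8.79% of all genes) and none higher (7.28%) at the unadjusted level. Ntf3, neurotrophin 3, was at 3.21 ± 1.63 in Con and 1.20 ± 0.722 CPM in MPTP-SU (adjusted p = 0.136) and was called with only the 8 libraries (0.0487) and without MPTP-Veh replicate 4 (0.0424). Manf, a secreted factor that protects dopaminergic neurons, fell 1.38-fold (adjusted p = 0.0436), under the 1.5-fold limit. Bdnf, brain-derived neurotrophic factor, was at 18.4, 22.4, 15.7 and 20.7 CPM in Con and at 19.0, 19.5, 14.1 and 16.6 CPM in MPTP-SU (log2 difference -0.16 ± 0.17). Sst, Npy, Chgb and Sod3 lost their calls on leaving out 6 or 7 of the 8 libraries, MPTP-SU replicates 2, 3 and 4 and Con replicate 2 among them, with adjusted p up to 0.144.

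The lists of GABA genes, glutamate genes, sodium and calcium channels, and potassium channels held no DEG by edgeR over the 20 midbrain libraries or by limma-voom. Channel and receptor genes outside these lists, such as Chrm1 and Kcnj13 above, were lower DEGs. At an unadjusted p below 0.05, 4 of 21 GABA genes, 4 of 29 glutamate genes, 3 of 27 sodium and calcium channels and 3 of 30 potassium channels were higher (7.28% of all genes). In the same order, 0, 2, 5 and 2 members of these lists were lower (8.79%). Their median log2 fold changes were 0.21, 0.12, 0.0009 and 0.14. Kcnc2, the fast Kv3.2 potassium channel, was at 97.3, 123, 114 and 100.3 CPM in Con and at 157, 231, 232 and 195 CPM in MPTP-SU (adjusted p = 0.0814). Slc17a6, the vesicular glutamate transporter of thalamus and brainstem, was at 249 ± 46.8 and 395 ± 49.0 CPM (adjusted p = 0.200), whereas Slc17a7, that of cortex, was at 202 ± 126 and 102 ± 57.3 CPM (adjusted p = 0.346). Kcnc2, Slc17a6 and the potassium channel gene Kcnd2, at 87.6 ± 7.61 in Con and 136 ± 14.6 CPM in MPTP-SU, were higher DEGs with only the 8 libraries (adjusted p = 0.0031, 0.0111 and 0.0035) and when MPTP-Veh replicate 4 was dropped (0.0076, 0.0068 and 0.0021). In these fits the GABA, glutamate, sodium and calcium, and potassium lists held 1, 2, 2 and 3 higher DEGs with the 8 libraries (1.83% of all genes), and 0, 2, 2 and 3 higher (1.78%) with 1 potassium channel lower in the other. DESeq2 called 1 glutamate gene and 1 potassium channel as higher (0.938%). The summed thalamic markers were higher in MPTP-SU replicates 2 to 4, and their part in these values was not tested.

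**Figure D5:**
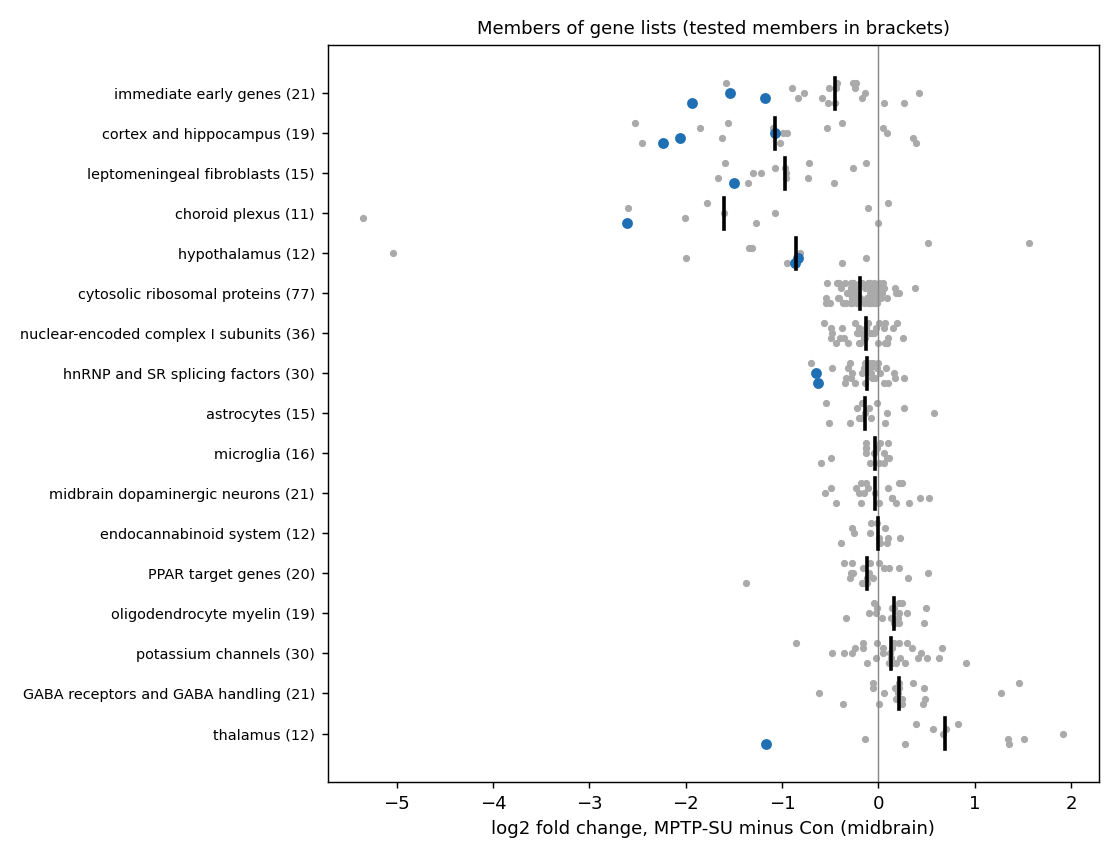
Log2 fold changes (MPTP-SU minus Con) of the members of 17 gene lists, one point per tested gene, with the number tested in brackets. Blue points are lower DEGs and black bars are list medians, which run from -1.60 for the choroid plexus to 0.69 for the thalamus.

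The same contrast in the spinal cord of the series gave no DEG among 16682 genes by edgeR (0.00%), with 1530 genes (9.17%) at an unadjusted p below 0.05 and a smallest adjusted p of 0.0957, while limma-voom gave 1. A test of the difference between tissues in the 16 libraries, by limma-voom with quality weights, called 201 of 16704 genes (1.20%), 127 with the lower change in the midbrain. For Ctxn1 the midbrain change minus the spinal cord change was -1.22 ± 0.20 on the log2 scale (adjusted p = 0.0104), with spinal cord means of 17.5 ± 2.38 in Con and 16.4 ± 0.658 CPM in MPTP-SU. Syt5 differed by -0.89 ± 0.13 (adjusted p = 0.00449), Igf2 by -1.56 ± 0.26 (adjusted p = 0.0104) and Kcnc2 by 0.91 ± 0.15 (adjusted p = 0.0101). Genes such as Ctxn1 were named for their midbrain change, so these differences are not independent of it. The number called ran from 56 without Con replicate 4 of the midbrain to 356 without its MPTP-SU replicate 1. It also moved by more than 1.5-fold without midbrain Con replicates 1 (115) and 2 (89) and MPTP-SU replicate 2 (67), and without spinal cord Con replicate 2 (133) and MPTP-SU replicates 1 to 4 (85, 74, 96 and 71).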

How the data were processed

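RNA from midbrain and spinal cord was sequenced from CORALL RNA-seq V2 libraries. The authors deposited 1 table of estimated counts per gene symbol for each sample, already rounded to whole numbers and not normalised. Their methods and processing notes name fastp trimming, STAR alignment, Salmon quantification, GATK and build GRCm39, without versions. From 40213 symbols, filterByExpr kept 16629 over the 20 midbrain libraries (11958200 to 16639823 counts). TMM factors and edgeR 4.0.16 (R 4.3.3) quasi-likelihood fits over the 5 midbrain groups of 4 gave log2 fold changes of MPTP-SU minus Con and Benjamini-Hochberg adjusted p. The prior count of these fold changes was edgeR's default. Their standard errors were the size of the log2 fold change divided by the square root of the F statistic. Log2 CPM for the principal components used a prior count of 2. DEGs had adjusted p below 0.05 and a fold change above 1.5. CPM, counts per library total, used TMM-scaled totals. The difference between tissues came from limma 3.58.1. Alternatives were DESeq2 1.42.0, limma-voom, other scaling, filters, libraries and a replicate block. An exact permutation test of 4 against 4 cannot go below 0.0286, so the fits across all genes were used. Scripts were tested on simulated data. Intervals on counts cover counting error only.

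The members and gene lists were chosen with earlier results of these data known. The rule for named genes took the 12 DEGs higher and 12 lower with the smallest p, an established symbol, groups that did not overlap and at least 1 CPM in a group, 10 genes of interest such as Th, and up to 4 members of each list with the smallest p besides its extremes. The text leaves some of these out. Rin1, Synpo, Icam5, Hpca, Chrm1, Alb, Apob, Chgb, Samd5 and Col6a1 were added after their values were seen, as was the list of 23 liver genes. Some genes that met the rule are not reported here.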

Additional observations from a re-analysis of the deposited data

Results flagged for a closer look

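Of 204 groups of 4 libraries screened among the 102 genes considered (Con and MPTP-SU of each), 17 had 1 library farther from the rest than Dixon's 95% limit allows, and chance gives about 1 in 20. In Con these were Ddn in replicate 2 (251 CPM), Egr4 in replicate 2 (2.74 CPM), Fmod in replicate 3 (38.4 CPM), Ppargc1a in replicate 1 (43.9 CPM) and Alb in replicate 1 (16.04 CPM). In MPTP-SU, replicate 1 stood apart for Igf2 (79.9 CPM), Sst (53.1 CPM) and Manf (34.9 CPM), and replicate 2 for Gabrb2 (487 CPM). MPTP-SU replicate 3 stood apart for Pnn (83.5 CPM), Hnrnpul1 (104 CPM), Apob (0.0581 CPM), Chgb (174 CPM) and Col6a1 (10.98 CPM). MPTP-SU replicate 4 did so for Hnrnph3 (31.5 CPM), Ntf3 (2.27 CPM) and Hpca (96.9 CPM). The Apob value was 1 count against 0 in the other MPTP-SU libraries, where any count passes the limit, so it tells nothing about that library.

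For 32 of the genes the change between MPTP-SU and Con differed between midbrain and spinal cord by the limma-voom test of the difference. Given as midbrain minus spinal cord on the log2 scale, the difference was negative for Ctxn1 (-1.22), Hrk (-1.02), Atn1 (-0.60), Syt5 (-0.89), ND6 (-0.95), Celf5 (-0.65), Prrt1 (-0.86) and Polr2a (-0.61). Forebrain and synaptic genes with a negative difference were Ddn (-2.22), Neurod2 (-2.16), Nrgn (-1.66) and Synpo (-1.29). Igf2 (-1.56), Fmod (-1.74), Aldh1a2 (-1.15) and Col6a1 (-1.84), the meningeal and matrix genes, were negative too, as were Sst (-0.76), Chgb (-0.79), Sod3 (-0.68), Alb (-5.78) and Apob (-5.99). It was positive for Tspan12 (0.61), Foxp2 (0.88), Cbln2 (0.77), Klhl11 (0.71), Fign (0.71), Samd5 (1.45), Rora (1.32), Rorb (0.88), Slc17a6 (0.64), Kcnc2 (0.91) and Kcnd2 (0.66). The spinal cord values came from other libraries of the series, and these genes had been named for their midbrain values.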

How the results depend on the processing

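The 127 DEGs (25 higher, 102 lower) became 422 (156, 266) with DESeq2, 362 (36, 326) with library size alone, 712 (290, 422) with only the 8 libraries, 786 (299, 487) without MPTP-Veh replicate 4, 208 (38, 170) by adjusted p alone and 1118 (514, 604) by unadjusted p with the fold change. Without a low-count filter there were 91 (11, 80), and RLE size factors, 10 counts in every library and limma-voom gave 128, 125 and 149. The lower share, 80.3%, was 63.0% with DESeq2, 59.3% with only the 8 libraries, 62.0% without MPTP-Veh replicate 4 and 90.1% with library size alone, which moved the median of all genes to -0.11 on the log2 scale. Leaving out 1 of the 8 libraries gave 11 to 89 DEGs, 1 to 8 of them higher and 10 to 82 lower. For the difference between tissues, 201 genes, the range was 56 to 356, and equal weights, RLE size factors and 10 counts in every library gave 198, 212 and 213. The cause of these shifts was not tested.

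Replicate numbers were not used as pairs: deviations of same-numbered Con and MPTP-SU libraries correlated at 0.045, -0.014, -0.046 and 0.011 across genes. A replicate block gave 146 DEGs (43 higher, 103 lower), 109 of them shared, and 284 genes that differed between tissues. It ended the calls of Npy, Srsf9, Cdh6, Fign, Gpcpd1 and Samd5 among those named. With the block Cnr1 (-0.027) and Pparg (-0.034) changed sign on the log2 scale, as they did with library size alone (-0.10 for Cnr1 and -0.10 for Pparg) and limma-voom (-0.0050 and -0.0066). None of these was called.

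Leaving out 1 library also turned the sign of uncalled differences near 0 on the log2 scale. The values ran from -0.48 to 0.11 for Th, -0.64 to 0.10 for Slc6a3, -0.077 to 0.067 for Itgam, -0.061 to 0.012 for Mapk14, -0.14 to 0.15 for Cnr1 and -0.17 to 0.28 for Pparg. Testing without a low-count filter ended the calls of Camk2a, Npy and Srsf9 too. Replicates of a group differed by 8.35 to 88.1 times counting noise (chi-square per degree of freedom over genes together). Egr4, Alb and Apob had few counts in MPTP-SU, and the effect of sequencing depth on single genes was not tested.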
